A study of Mus musculus with 18 samples.

Results

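The expression of 9 genes that mark minor cell types of the olfactory epithelium was followed in sorted cells: Trpm5, Pou2f3, Avil, Il25 and Chat of chemosensory microvillar cells, and Ascl3, Foxi1, Coch and Cftr of ionocyte-like microvillar cells. They were taken by symbol from a gene expression table, and all 9 were found, each on a single row, among 23359 gene symbols. RNA-seq had been done on cells of the main olfactory epithelium, the sheet in the nose where olfactory sensory neurons (OSNs) lie, after fluorescence-activated cell sorting. All mice carried a Cre knock-in and a Cre-dependent fluorescent reporter, and reporter-positive and reporter-negative cells were collected. The Taar5 line (Taar5-Cre with L10-GFP, postnatal day 11 to 14) gave 7 positive libraries (Taar5+) and 9 negative libraries (control). The Taar6 line (Taar6-Cre with ZsGreen, postnatal day 16 to 17) gave 1 positive library (Taar6+) and 1 negative library. These ages are those of the labels, and the study's reporting summary lists older mice, aged in weeks, for both lines.

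Strain is C57BL/6 in the labels and a mixed background in the study's reporting summary. Cre was made from the transcript of Taar5 or Taar6, genes of trace amine-associated receptors, so the reporter marks cells that make or have made that transcript, not a single receptor type. The control gate was set by lack of the reporter alone and therefore took OSNs with odorant receptors (ORs) together with any other unlabelled cell. No marker of a microvillar cell was used in either gate. Values are TPM (transcripts per 1000000), which are corrected for gene length and scaled to the same sum in each library, and the sequencing depth behind them is unknown. A gene at 0 is described as listed at 0, since such a value can be a failed estimate. Nothing in the labels says that the libraries came from separate animals, so the p-values measure the spread between libraries, which may be technical.

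Microvillar cells are non-neuronal cells with an apical tuft that lie among the supporting cells of the epithelium. One kind resembles the tuft or brush cells of the airway and gut, depends on the transcription factor Pou2f3, opens the channel Trpm5 after stimulation, and can release acetylcholine and the cytokine interleukin-25. The other kind resembles ionocytes, cells that move ions across an epithelium with proton pumps and chloride channels under the control of the transcription factor Foxi1.

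Libraries differed in ways that touched every member. Control replicate 2 had 5939 gene rows above 0, while the other 8 controls had 11352 to 17015, and 639 of 3204 genes that were abundant in the other libraries were listed at 0 in it. Its 13 detected Taar values were identical to those of control replicate 1. They were set to missing, but its count of gene rows above 0 still includes them. Taar5+ replicate 5 had the lowest summed Taar level of its group, 1517 TPM against 4542 to 7804 TPM, and the highest summed OR level, 5525 TPM against 225.2 to 1999.5 TPM. Its summed level of 4 markers of sustentacular cells, the supporting cells of the epithelium, was 9126 TPM. That of control replicate 2 was 9378 TPM, against 31.1 to 2843 TPM in the other 14 libraries of the Taar5 line. Markers of mature OSNs (7 genes, among them Omp) were present in all libraries, with sums of 5727 to 27991 TPM in controls and 15092 to 25640 TPM in Taar5+ libraries. Results are given with all 16 libraries of the Taar5 line and again without these 2 libraries, an alternative that was chosen after the data had been seen.

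Trpm5 encodes a calcium-activated cation channel that depolarizes chemosensory cells. It spans chr7:143069153-143094642 on the minus strand of GRCm38 and overlaps Tssc4 on the opposite strand. The lowest, median and highest levels were 0, 0.897 and 11.1 TPM in the 9 controls, and 0, 0.0729 and 7.15 TPM in the 7 Taar5+ libraries. The groups overlapped: 4 controls and 3 Taar5+ libraries were listed at 0, and the high values sat in control replicates 3, 5 and 9 and in Taar5+ replicate 5. The mean difference in log2(TPM + 1), Taar5+ minus control, was -0.55 (exact two-sided permutation test over 11440 arrangements, p = 0.449).

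Il25 encodes interleukin-25, a cytokine of tuft cells (chr14:54932695-54935837, plus strand). The controls had a lowest level of 0, a median of 0.834 and a highest level of 14.7 TPM, and the Taar5+ libraries 0, 0 and 4.46 TPM. It was above 0 in 5 of 9 controls and in 2 of 7 Taar5+ libraries, and every library that held Il25 also held Trpm5. Its highest values, 11.2, 14.7 and 13.4 TPM, were in control replicates 1, 3 and 5. The difference was -1.17 on the log2(TPM + 1) scale (exact two-sided permutation test, p = 0.149).

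Avil encodes advillin, an actin-binding protein of microvilli (chr10:127000709-127020994, plus strand, overlapping Tsfm on the opposite strand). Its lowest, median and highest levels were 0, 2.46 and 3.99 TPM in controls and 0, 0 and 5.54 TPM in Taar5+ libraries. Of the 9 controls, 6 lay between 2.41 and 3.99 TPM, whereas 6 of 7 Taar5+ libraries lay between 0 and 0.587 TPM and the other was replicate 5. The difference was -0.83 (exact two-sided permutation test, p = 0.117).

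Chat encodes choline acetyltransferase, which makes acetylcholine (chr14:32408203-32465989, minus strand). It was the rarest member: 6 of 9 controls and 6 of 7 Taar5+ libraries were listed at 0. The values above 0 were 0.854, 2.998 and 0.656 TPM in control replicates 3, 6 and 9, and 0.912 TPM in Taar5+ replicate 5. Slc18a3, which encodes the vesicular acetylcholine transporter and lies inside Chat on the same strand, was listed at 0 in all 18 libraries. The difference in Chat was -0.27 (exact two-sided permutation test, p = 0.461).

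Pou2f3, the transcription factor on which tuft cells depend (chr9:43123939-43210369, minus strand), had another pattern. Its lowest, median and highest levels were 0, 10.5 and 19.6 TPM in controls, and 2.90, 8.82 and 18.3 TPM in Taar5+ libraries. It was above 0 in 15 of 16 libraries, including 6 libraries with Trpm5 listed at 0, and the ranges of the groups lay over each other. The difference was 0.01 ± 0.59 (SE) on the log2(TPM + 1) scale (exact two-sided permutation test, p = 0.989). A difference of this error leaves room for changes in either direction. Control replicate 2, at 0 TPM, was the only library of either group without it.

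**Figure D1:**
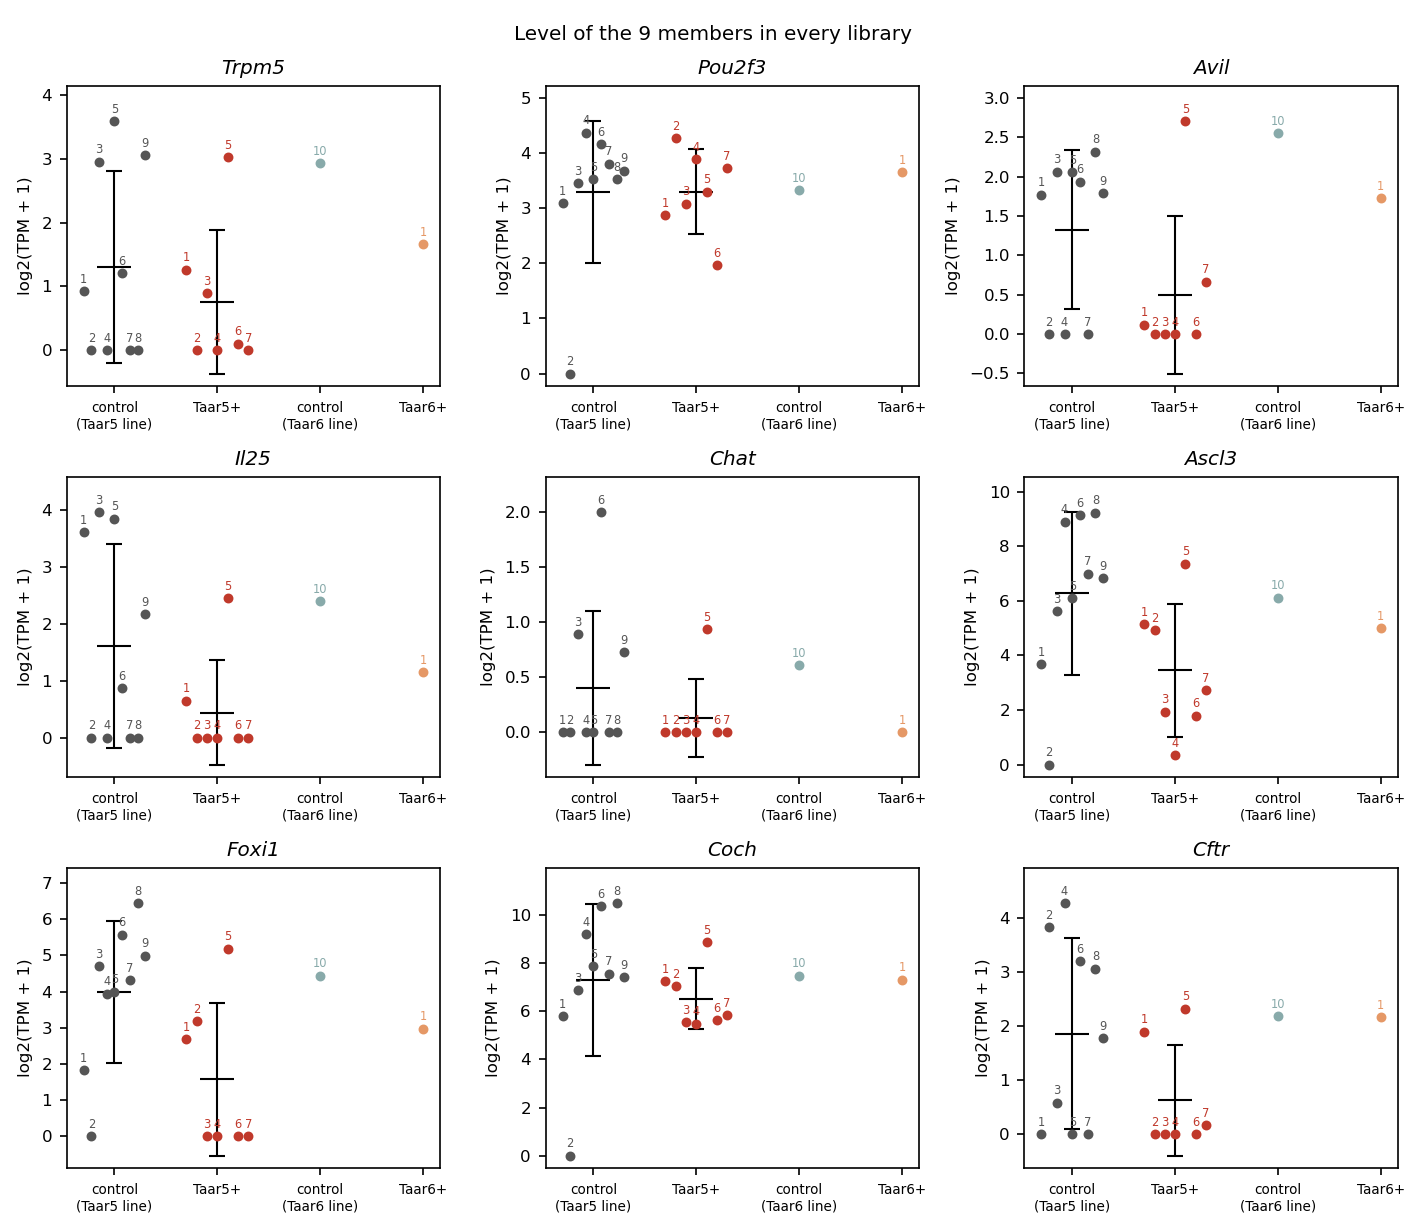
Level of each member as log2(TPM + 1) on the vertical axis, by group on the horizontal axis. Each point is a library with its replicate number, and the black marks give the mean ± SD of the groups with 9 and 7 libraries. Taar5+ replicate 5 is the highest of its group for every member but Pou2f3, and control replicate 2 stands at 0 for every member but Cftr.

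Ascl3 encodes a basic helix-loop-helix transcription factor of ionocyte-like microvillar cells (chr7:109727465-109731726, minus strand). The lowest, median and highest control levels were 0, 112.0 and 600.8 TPM, and those of Taar5+ libraries were 0.266, 5.61 and 164.0 TPM. In controls, 3 libraries stood far above the rest, with 475.9 TPM in replicate 4, 563.8 TPM in replicate 6 and 600.8 TPM in replicate 8. The groups overlapped, because Taar5+ replicate 5 held 164.0 TPM and control replicate 2 was listed at 0. Over all 16 libraries the difference was -2.81 ± 1.22 (SE) on the log2(TPM + 1) scale, with an exact two-sided permutation p of 0.0644.

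Foxi1 encodes the forkhead factor that specifies ionocytes in several epithelia (chr11:34204338-34208089, minus strand). Lowest, median and highest levels were 0, 18.9 and 86.4 TPM in controls and 0, 0 and 35.5 TPM in Taar5+ libraries. It was above 0 in 8 of 9 controls and in 3 of 7 Taar5+ libraries, namely replicates 1, 2 and 5 with 5.45, 8.05 and 35.5 TPM. The difference was -2.40 ± 0.95 (SE), the only one of the 9 members with an exact two-sided permutation p under 0.05 over all 16 libraries (p = 0.0383). This call was lost with quantile normalization (exact permutation p = 0.0562), with mean ranks (exact permutation p = 0.0515) and in 9 of the 16 tests that left out a single library (exact permutation p of 0.0536 to 0.0723).

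Coch encodes cochlin, a secreted protein best known from the inner ear (chr12:51593341-51605771, plus strand), and was the most abundant member. The controls had 0 TPM at the lowest, 188.4 TPM at the median and 1447 TPM at the highest, and the Taar5+ libraries had 43.7, 56.2 and 466.6 TPM. The highest values were again in control replicates 4, 6 and 8, with 590.2, 1313 and 1447 TPM. The lowest Taar5+ values lay close together, at 45.7, 43.7, 48.7 and 56.2 TPM in replicates 3, 4, 6 and 7. In those same 4 libraries Foxi1 was listed at 0 and Ascl3 was between 0.266 and 5.61 TPM. The level of Coch was 10.02 to 164.1 times that of Ascl3 in them, against 1.24 to 5.09 times in the 13 other libraries where both were above 0. The difference between the groups was -0.76 ± 1.10 (SE) (exact two-sided permutation test, p = 0.595).

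Cftr encodes the chloride channel mutated in cystic fibrosis, which ionocytes of the airway make in quantity (chr6:18170687-18322768, plus strand, with an antisense gene inside it). The lowest, median and highest levels were 0, 2.41 and 18.3 TPM in controls, and 0, 0 and 3.99 TPM in Taar5+ libraries. It was highest in control replicates 4 and 2, with 18.3 and 13.2 TPM, and was the sole member above 0 in control replicate 2. It was listed at 0 in 3 controls and 4 Taar5+ libraries. The difference was -1.23 ± 0.70 (SE) (exact two-sided permutation test, p = 0.125).

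**Figure D2:**
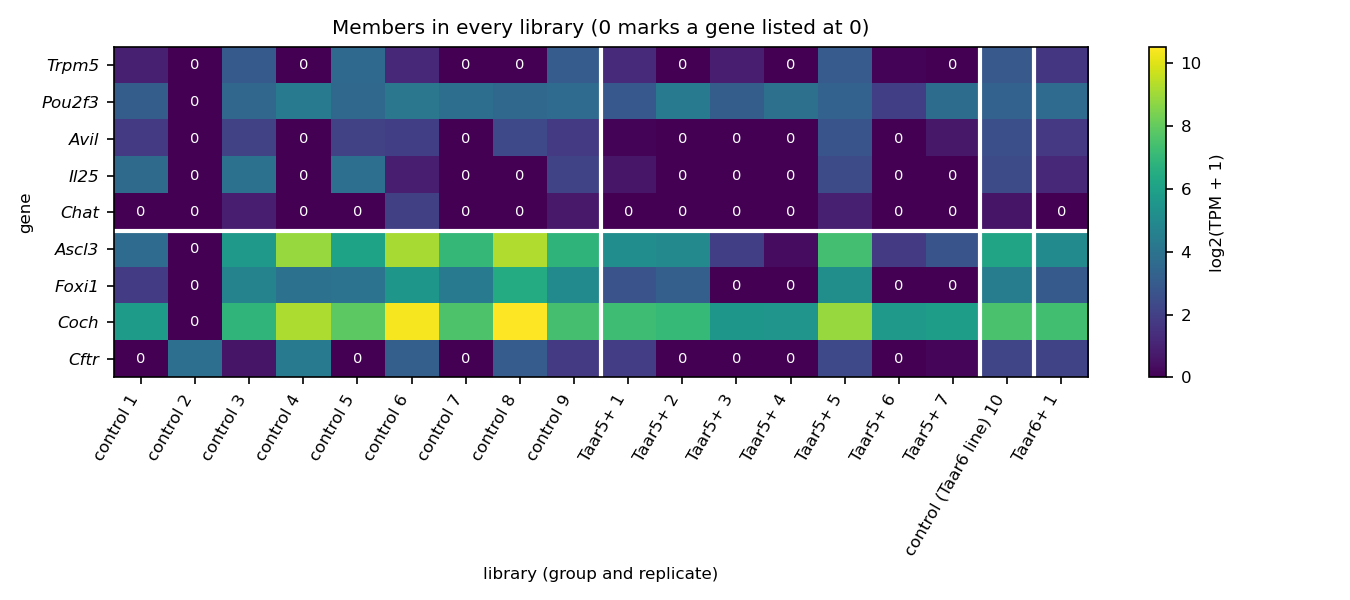
Members (rows, chemosensory above the white line and ionocyte-like below) in the 18 libraries (columns), coloured by log2(TPM + 1), with 0 written where a gene was listed at 0. Ascl3 and Coch are brightest in control replicates 4, 6 and 8, and Taar5+ replicate 5 is the only Taar5+ library with all 9 members above 0.

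The number of members above 0 was 1 to 9 per control library with a median of 7, and 3 to 9 per Taar5+ library with a median of 4. All 9 were found together in control replicates 3, 6 and 9, in Taar5+ replicate 5 and in the control library of the Taar6 line. The 4 ionocyte-like members together made up 13.2 to 2142 TPM in controls with a median of 314.3 TPM, and 43.9 to 670.1 TPM in Taar5+ libraries with a median of 61.9 TPM. The 13.2 TPM was Cftr alone, in control replicate 2, and without that library the lowest control sum was 68.5 TPM. The 5 chemosensory members summed to far less, 0 to 38.2 TPM in controls and 2.97 to 26.9 TPM in Taar5+ libraries. Without Pou2f3 the sum was 0 to 27.7 TPM in controls and 18.1 TPM in Taar5+ replicate 5. In the other Taar5+ libraries it was 0 to 2.06 TPM.

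Of the 9 members, 6 passed the filter of at least 1 TPM in at least 7 of 16 libraries (Pou2f3, Avil, Ascl3, Foxi1, Coch and Cftr), and Trpm5, Il25 and Chat did not. In the limma fit across all 12502 genes that passed, 0 members had an adjusted p under 0.05, where 0.168% of all genes did. At an unadjusted limma p under 0.05, 2 members were lower in Taar5+ libraries, Foxi1 (adjusted p = 0.509) and Ascl3 (adjusted p = 0.609). The share of all genes tested that was lower at this threshold was 5.38%. The median log2 fold change of the 6 members was -1.03, beside 0.02 over all genes tested. By the exact permutation test 1 of 9 members was lower at p under 0.05, beside 4.1% of the 19192 genes with a value above 0. In these sorted pools, fewer cells of a type and less RNA of a gene per cell cannot be told apart.

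The 2 libraries that stood apart changed these calls. Control replicate 2 was listed at 0 for every member but Cftr. Taar5+ replicate 5 had the highest level of its group for every member but Pou2f3. Leaving both out therefore moves most members toward lower levels in Taar5+ libraries. Without control replicate 2 and Taar5+ replicate 5, limma gave an adjusted p under 0.05 for 2 of the 4 members that then passed the filter. These were Ascl3, at -4.25 ± 0.88 (SE) with an adjusted p of 0.00989, and Foxi1, at -3.50 ± 0.73 (SE) with an adjusted p of 0.0108. Of all genes tested 2.83% were then called, and 2.42% were called as lower. Coch (-2.06, limma adjusted p = 0.0927) and Pou2f3 (-0.40, limma adjusted p = 0.773) did not pass. The median difference of all genes also moved, to -0.22. In the same fit, markers of other cells were called as lower too: 4 of 6 immune markers, 3 of 3 horizontal basal markers and Lyz2 of the gland and secretory list.

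The exact permutation test, run over 8 controls and 6 Taar5+ libraries, put 5 of 9 members under 0.05, all lower in Taar5+ libraries, beside 10.4% of genes. These were Foxi1 (exact p = 0.00233), Ascl3 (exact p = 0.0030), Coch (exact p = 0.0163), Avil (exact p = 0.0167) and Il25 (exact p = 0.0456). The remaining 4 were Cftr with a difference of -1.27, Trpm5 with -1.09, Chat with -0.45 and Pou2f3 with -0.40, and their exact permutation p ran from 0.125 to 0.266. Each library alone moved the limma result less: leaving out only control replicate 2 gave Ascl3 a limma adjusted p of 0.0790, and leaving out only Taar5+ replicate 5 gave 0.263. A limma fit with array weights, which gives less weight to libraries that scatter more, kept all 16 libraries and called Foxi1 (adjusted p = 0.000287), Ascl3 (adjusted p = 0.0029) and Avil (adjusted p = 0.00759) as lower, among 10.8% of all genes tested.

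**Figure D3:**
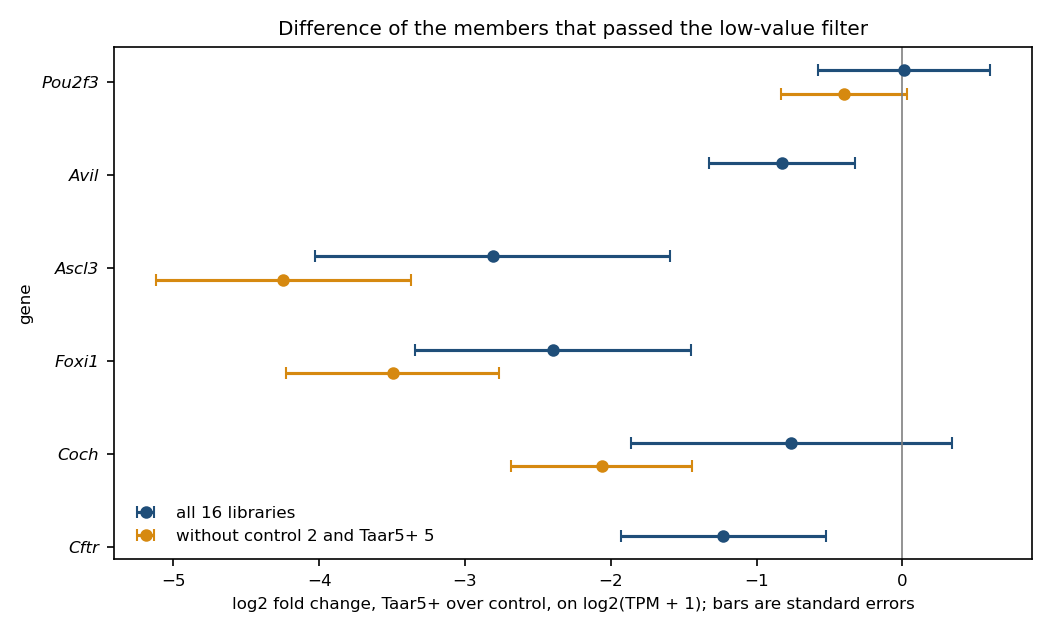
Log2 fold change of Taar5+ over control libraries on the log2(TPM + 1) scale (horizontal axis, bars are SE) for the 6 members that passed the low-value filter, with all 16 libraries in blue and without 2 libraries in orange. Ascl3 moved from -2.81 to -4.25 and Foxi1 from -2.40 to -3.50; Avil and Cftr passed the filter only with all libraries.

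Some members varied together across libraries. Over the 16 libraries of the Taar5 line, Spearman's rho was 0.98 for Ascl3 with Coch and 0.92 for Ascl3 with Foxi1. It was 0.87 for Foxi1 with Coch and 0.88 for Trpm5 with Il25. Within the 9 controls these pairs gave 0.95, 0.75, 0.68 and 0.87, in the same order. Trpm5 with Ascl3 gave 0.24 over the 16 libraries and -0.22 within the controls. Il25 with Ascl3 gave 0.29 over the 16 libraries and -0.43 within the controls. Pou2f3 gave -0.28 with Trpm5 and 0.45 with Ascl3 over the 16 libraries, and 0.73 with Ascl3 and 0.68 with Coch within the controls. Avil gave similar values with genes of both kinds over the 16 libraries, 0.73 with Il25, 0.72 with Foxi1, 0.62 with Trpm5 and 0.58 with Ascl3. Chat, above 0 in 4 of the 16 libraries, gave 0.64 with Foxi1 and 0.60 with Il25. Cftr gave 0.47 with Ascl3 and 0.42 with Foxi1 over the 16 libraries, and 0.29 and 0.02 within the controls. These are descriptions, since the points share the group difference, the 0 values and the complexity of each library. Control replicates 3, 5 and 9, with high Trpm5, had 15400 to 17015 gene rows above 0. Control replicates 4, 6 and 8, with the highest Ascl3 and Coch, had 11352 to 14648.

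**Figure D4:**
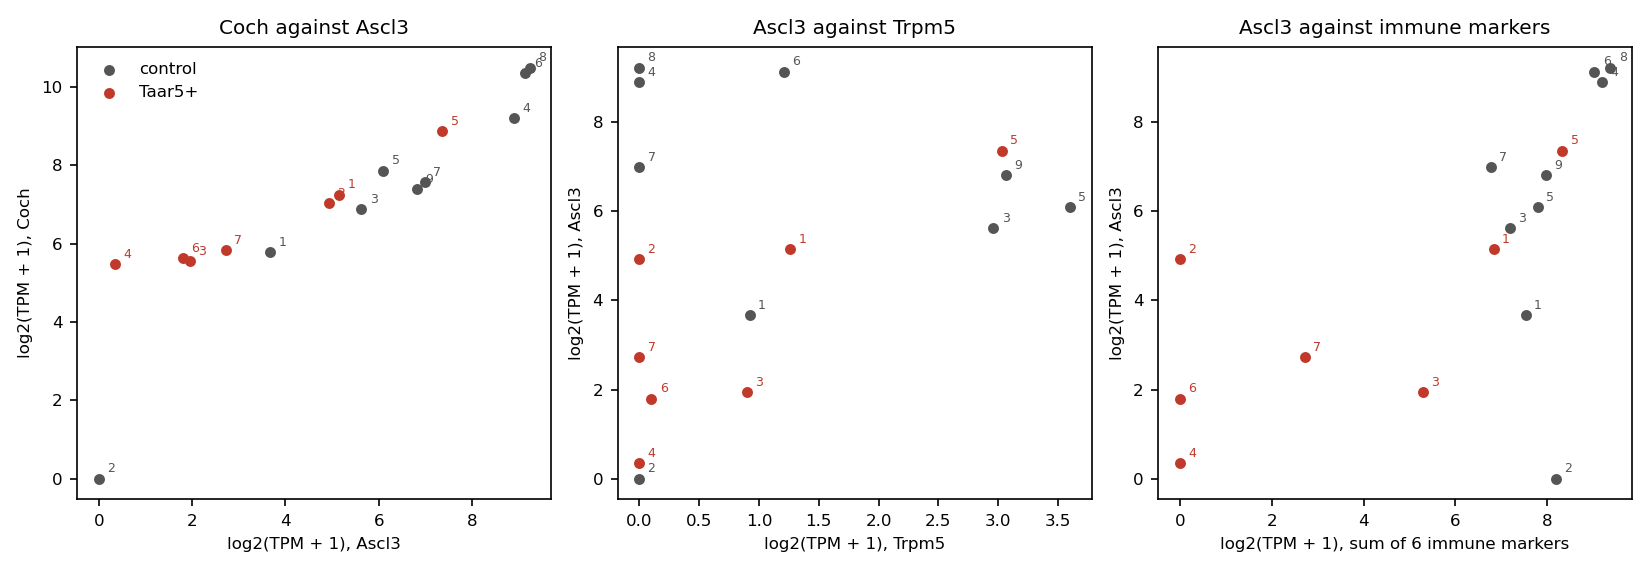
Pairs of measures over the 16 libraries of the Taar5 line, both axes as log2(TPM + 1), with replicate numbers. Coch is higher where Ascl3 is higher, Ascl3 is highest in control replicates 4, 6 and 8, where Trpm5 was 0, 1.32 and 0 TPM, and the same 3 controls have the highest sum of 6 immune markers.

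For each member above 1 TPM in at least 6 of the 16 libraries, the 3 genes most like it by Spearman's rho were taken from all genes tested. For Ascl3 they were Stap1 (0.97), Krt7 (0.97) and Moxd1 (0.94), and for Coch they were Krt7 (0.98), Stap1 (0.93) and Moxd1 (0.92). For Foxi1 they were Stap1 (0.92), Hepacam2 (0.91) and Ctss (0.91). Trpm5 was most like Olfr772 (0.95), Ptk7 (0.95) and Olfr773 (0.94), and Avil most like Scara3 (0.96), Paqr8 (0.96) and Lmo1 (0.96). Cftr was most like Ctsc (0.90), Anxa1 (0.84) and Aqp4 (0.84), and Pou2f3 most like Ufd1l (0.84), Mospd1 (0.84) and Lamtor3 (0.83). Stap1, like Ascl3, had its highest levels in control replicates 4, 6 and 8, with 52.6, 118.6 and 133.3 TPM.

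The sequences upstream of Ascl3, Foxi1 and Coch, the members whose levels varied together across libraries, are shown with that of Cftr to compare their base composition. Each is the 250 bases before the RefSeq start on GRCm38.p6, 5′ to 3′ on the strand of the gene, with CpG pairs in capitals. They lie at chr7:109731733-109731982 (minus), chr11:34208090-34208339 (minus), chr12:51593091-51593340 (plus) and chr6:18170437-18170686 (plus).
Ascl3: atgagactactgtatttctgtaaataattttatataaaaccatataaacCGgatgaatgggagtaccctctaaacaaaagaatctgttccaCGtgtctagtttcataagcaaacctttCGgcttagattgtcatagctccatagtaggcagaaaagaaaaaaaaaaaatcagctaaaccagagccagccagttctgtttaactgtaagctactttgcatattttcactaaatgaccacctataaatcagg
Foxi1: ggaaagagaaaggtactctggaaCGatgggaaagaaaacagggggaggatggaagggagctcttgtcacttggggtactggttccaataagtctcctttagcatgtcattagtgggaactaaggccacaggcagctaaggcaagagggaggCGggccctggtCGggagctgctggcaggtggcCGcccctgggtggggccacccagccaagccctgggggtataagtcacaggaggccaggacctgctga
Coch: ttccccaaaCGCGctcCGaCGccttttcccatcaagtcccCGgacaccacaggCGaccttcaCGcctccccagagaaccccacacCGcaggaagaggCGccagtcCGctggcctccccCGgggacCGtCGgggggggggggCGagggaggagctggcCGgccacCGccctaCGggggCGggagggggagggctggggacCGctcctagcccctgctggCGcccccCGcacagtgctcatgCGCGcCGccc
Cftr: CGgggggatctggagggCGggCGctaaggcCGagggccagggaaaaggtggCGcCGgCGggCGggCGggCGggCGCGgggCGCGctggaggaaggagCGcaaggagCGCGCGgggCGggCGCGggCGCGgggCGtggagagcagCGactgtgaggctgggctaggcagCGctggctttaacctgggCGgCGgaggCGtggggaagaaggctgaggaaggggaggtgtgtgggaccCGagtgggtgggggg
Ascl3 had 3 CpG pairs and 34.8% G or C, and Foxi1 had 4 and 58.8%. Coch had 24 and 74.8%, and Cftr had 30 and 76.4%, beside medians of 6 CpG pairs and 52.4% over all promoters of the table. The promoter table held 7 of 9 members, not Pou2f3 and Il25. In windows of 300 bases, from 250 before to 50 after the start, both strands were searched for the octamer ATGCAAAT, the forkhead motif GTAAACA and the E-box CAGCTG. The octamer and the forkhead motif were found in 0 of the 7 windows, beside 1.74% and 3.65% of 32851 promoters. The E-box was found in 1 of 7, that of Chat, beside 16.3% of promoters.

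Companion genes of both cell types were read from the same limma fit. Of 36 genes of chemosensory cells, 34 were in the table, 12 passed the low-value filter, and 0 had an adjusted p under 0.05. At an unadjusted limma p under 0.05, 4 of these 12 were lower and 0 higher in Taar5+ libraries, where 5.38% of all genes tested were lower. They were Ptgs1, a cyclooxygenase (-1.64, adjusted p = 0.514), Lrmp (-1.79, adjusted p = 0.531), Spib, an ETS transcription factor (-1.47, adjusted p = 0.590), and Rgs13, a regulator of G protein signalling (-1.62, adjusted p = 0.627). The median log2 fold change of the 12 was -0.90, beside 0.02 over all genes tested.

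In the transduction list Gng13, a G protein subunit that OSNs also make, had 3894 to 14858 TPM in controls and 4821 to 14283 TPM in Taar5+ libraries. The other genes of that list were scarce. Rgs13 ran from 0 to 14.7 TPM in controls and from 0 to 8.68 TPM in Taar5+ libraries. Gnb3 had a median of 0 TPM in both groups and Sucnr1, the succinate receptor, was listed at 0 in all 18 libraries.

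Among factors and kinases, Dclk1, a kinase used as a tuft cell marker, had medians of 22.2 TPM in controls and 31.4 TPM in Taar5+ libraries. Sox9 had medians of 3.73 and 0.407 TPM, and Spib was above 0 in 6 of 9 controls and 1 of 7 Taar5+ libraries. Among genes of lipid mediators, Alox5ap, which helps to make leukotrienes, had medians of 14.9 TPM in controls and 1.56 TPM in Taar5+ libraries. Ptgs1 had medians of 5.34 and 0 TPM, and Alox5 had medians of 0.609 and 0 TPM. Immune cells also express each of these 3 genes of lipid mediators.

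In the list of surface and cytoskeletal genes, Lrmp had medians of 6.74 TPM in controls and 0.289 TPM in Taar5+ libraries. Espn, an actin-bundling protein of microvilli, had medians of 4.11 and 0.405 TPM, and Sh2d7 of 1.07 and 0 TPM. None of the 4 cholinergic companions passed the filter. Ache, which encodes the enzyme that breaks down acetylcholine, had medians of 0.181 TPM in controls and 0.926 TPM in Taar5+ libraries. Bche and Slc5a7, the choline transporter, were each above 0 in 1 of 16 libraries.

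Of 24 ionocyte companions, all were in the table and 16 passed the filter, with 0 at an adjusted limma p under 0.05. At an unadjusted limma p under 0.05, 1 was lower, Stap1 (-2.29, adjusted p = 0.678), and 0 were higher, beside the same 5.38% of all genes. The median log2 fold change of the 16 was -0.65. In the identity list Stap1 had medians of 18.9 TPM in controls and 0.598 TPM in Taar5+ libraries, Hepacam2 of 19.0 and 1.29 TPM, and Npy, a neuropeptide, of 1.03 and 1.67 TPM. Foxi3, a relative of Foxi1, was listed at 0 in all 18 libraries.

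Among proton pump subunits, Atp6v1b1 had medians of 3.57 TPM in controls and 9.11 TPM in Taar5+ libraries, with its highest value, 156.4 TPM, in Taar5+ replicate 5. Atp6v1c2 had medians of 10.1 and 1.17 TPM and Atp6v0d2 of 1.71 and 0 TPM. Among ion transport genes, Slc12a2, a sodium, potassium and chloride cotransporter that neurons also make, had medians of 34.9 and 47.6 TPM. Kcnma1, a potassium channel, had medians of 23.2 and 34.3 TPM, and Slc4a4, a bicarbonate cotransporter, of 21.0 and 18.7 TPM. None of these 3 passed the limma test, Slc12a2 at 0.32 (adjusted p = 0.956), Kcnma1 at 1.18 (adjusted p = 0.734) and Slc4a4 at -0.05 (adjusted p = 0.995).

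Without control replicate 2 and Taar5+ replicate 5, limma called 2 of the 9 chemosensory companions that passed, both lower: Lrmp (-2.53, adjusted p = 0.0331) and Ptgs1 (-2.37, adjusted p = 0.0187), where 2.83% of all genes were called. It called 0 of the 12 ionocyte companions that passed, with Stap1 at -3.35 (adjusted p = 0.0544). At an unadjusted limma p under 0.05, 4 of these 12 were lower, beside 1371 of all 11915 genes tested. With array weights, 8 of 12 chemosensory and 4 of 16 ionocyte companions were called by limma, all lower, beside 10.8% of all genes.

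**Figure D5:**
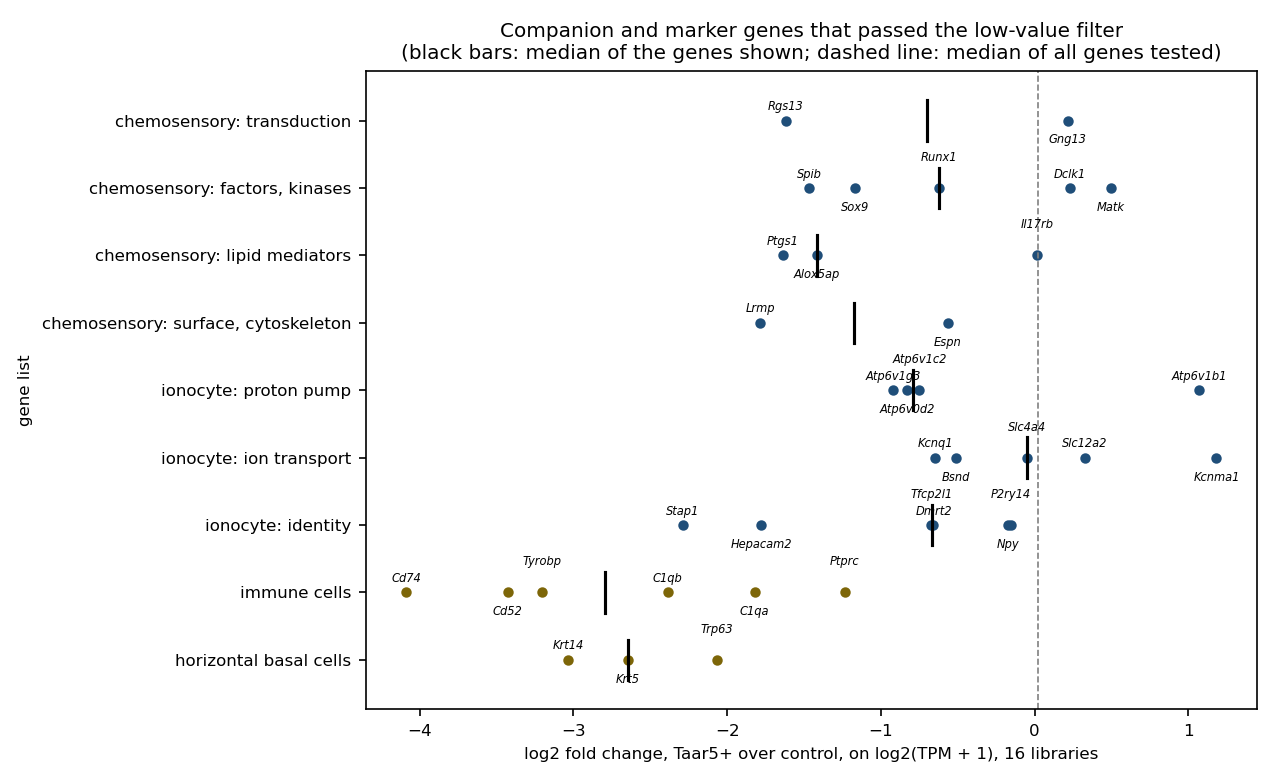
Log2 fold change of Taar5+ over control on the log2(TPM + 1) scale (horizontal axis) for companion genes in blue and markers of other cells in brown (rows), over 16 libraries. Black bars are medians of the genes shown in each list and the dashed line is the median of all genes tested; the medians of the immune and horizontal basal lists lie farther from the dashed line than those of the companion lists.

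Sums of immune and of horizontal basal markers also had lower medians in Taar5+ libraries. All 6 immune markers (Ptprc, Cd74, C1qa, C1qb, Tyrobp and Cd52) had negative limma differences, with a median of -2.80 over all 16 libraries. At an unadjusted limma p under 0.05, 5 were lower, beside 5.38% of all genes tested, and 0 had an adjusted p under 0.05. Without control replicate 2 and Taar5+ replicate 5, limma called 4 of them as lower, beside 2.42% of all genes tested. They were Cd74 (-4.82, adjusted p = 0.00272), Tyrobp (-4.47, adjusted p = 0.00317), C1qb (-3.65, adjusted p = 0.0317) and Cd52 (-3.68, adjusted p = 0.0422). The summed level of the 6 was 107.7 to 661.9 TPM in controls and 0 to 320.0 TPM in Taar5+ libraries, and none of the 6 was at 0 in all libraries. The 3 highest sums, 582.2, 519.4 and 661.9 TPM, were in control replicates 4, 6 and 8, the libraries with the highest Ascl3 and Coch, and Taar5+ replicate 5 had the highest sum of its group. The 3 markers of horizontal basal cells (Krt5, Krt14 and Trp63) summed to 0 to 122.5 TPM in controls and 0 to 180.9 TPM in Taar5+ libraries, with the highest sum in Taar5+ replicate 5 and medians of 98.0 and 5.01 TPM. Over all 16 libraries the 3 were lower at an unadjusted limma p under 0.05, beside 5.38% of all genes tested. Their median difference was -2.64, with 0 adjusted p under 0.05. Without the same 2 libraries their sums were 60.1 to 122.5 TPM in controls and 0 to 17.5 TPM in Taar5+ libraries. The libraries left out held 0 TPM (control replicate 2) and 180.9 TPM (Taar5+ replicate 5), so the gap between these ranges came from leaving them out. In that fit limma called all 3 as lower, beside 2.42% of all genes tested. Krt14 was at -4.44 (adjusted p = 5.53e-05), Krt5 at -3.91 (adjusted p = 0.00272) and Trp63 at -2.97 (adjusted p = 0.00102).

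The 4 progenitor markers summed to 0 to 91.5 TPM in controls and 0.628 to 88.7 TPM in Taar5+ libraries. Their medians were 51.4 and 3.04 TPM. Without control replicate 2 and Taar5+ replicate 5 the sums were 0 to 91.5 TPM and 0.628 to 12.5 TPM. Over all 16 libraries, 3 passed the filter, all with negative limma differences and 0 with an adjusted p under 0.05. With array weights limma called these 3 as lower, beside 10.8% of all genes in either direction. Gland and secretory markers (5 genes) summed to 26.6 to 1226 TPM in controls (median 194.3) and 2.61 to 3742 TPM in Taar5+ libraries (median 30.0). Lyz2, which immune cells also express, was called as lower without the same 2 libraries (-4.43, limma adjusted p = 0.00735). The sums of the other lists also overlapped between controls and Taar5+ libraries. Those of 4 sustentacular genes were 31.1 to 9378 TPM in controls (median 356.4) and 75.3 to 9126 TPM in Taar5+ libraries (median 318.5). Those of 3 immature OSN genes were 259.0 to 2464 TPM (median 1783) and 968.6 to 1560 TPM (median 1150). The 3 ciliated cell genes found summed to 2.99 to 587.3 TPM (median 362.9) and 327.8 to 495.1 TPM (median 374.2). Sums of 4 ensheathing glia genes were 16.4 to 134.5 TPM (median 58.95) and 0 to 100.5 TPM (median 18.16). Mast cell and basophil genes (4, with Mcpt4 listed at 0 in all libraries) summed to 0 to 14.8 TPM (median 1.235) and 0 to 19.4 TPM (median 0.0807). Endothelial genes (4) summed to 0 to 32.1 TPM (median 3.85) and 1.58 to 5.56 TPM (median 3.41). Sensory ganglion genes (4) summed to 29.9 to 156.9 TPM (median 84.8) and 33.2 to 123.7 TPM (median 97.2). The part of these cell types in the differences of the members and of the companion genes was not tested.

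In the Taar6 line, with 1 library per group, there is no replicate check and no test. Control and Taar6+ levels were 68.7 and 31.0 TPM for Ascl3, 20.6 and 6.88 TPM for Foxi1, 176.8 and 157.8 TPM for Coch, and 3.52 and 3.48 TPM for Cftr. They were 6.65 and 2.18 TPM for Trpm5, 4.29 and 1.22 TPM for Il25, 4.87 and 2.32 TPM for Avil, 0.528 and 0 TPM for Chat, and 8.98 and 11.6 TPM for Pou2f3. All 9 members were above 0 in the control library and 8 in the Taar6+ library, where Chat was listed at 0. The immune markers summed to 411.2 TPM in the control and 785.3 TPM in the Taar6+ library. Control and Taar6+ sums were 67.4 and 15.6 TPM for horizontal basal, 85.7 and 22.5 TPM for progenitor and 31.7 and 19.9 TPM for ensheathing glia markers. Other lists were higher in the Taar6+ library. Sums were 276.2 and 1876 TPM for sustentacular and 115.1 and 415.7 TPM for gland and secretory markers. Of the ionocyte companions, proton pump subunits summed to 19.2 and 81.3 TPM and ion transport genes to 422.2 and 560.6 TPM. Line, reporter and age differ together between the Taar5 and Taar6 lines and cannot be told apart, so levels were not compared between lines.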

How the data were processed

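The authors made libraries from sorted cells by Smart-seq2, a PCR-based full-length cDNA method without molecular identifiers, and their processing notes name Trimmomatic 0.36, HISAT2 2.1.0 and Cufflinks 2.2.1, with mapping to mm10. The deposited values are TPM. How TPM were derived, the annotation, and the handling of strand and multiply mapped reads are not given in the sources used here, so values of overlapping genes are uncertain. TPM keep no depth, and counting error cannot be given.

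The 488 rows that repeat a symbol were summed, leaving 23359 symbols. The 9 Taar5 line controls and 7 Taar5+ libraries were compared with limma 3.58.1 (R 4.3.3; trended eBayes) on log2(TPM + 1), for genes that reached 1 TPM in 7 or more libraries. P-values were adjusted by Benjamini-Hochberg over all genes tested, with a threshold of 0.05. Each member was also tested by an exact two-sided permutation of the 16 libraries. Fold changes on this scale understate the change of low genes. Scripts were tested on simulated data.

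Members, companion genes and marker lists were chosen with earlier results of these data known. Named companions were those with an adjusted p under 0.05 and the 3 with the highest mean TPM of each list. Named like genes were the 3 with the highest rho. Calls of other settings and lowest unadjusted p were named after their values were seen. Positions are from GENCODE M21 (GRCm38), promoters from RefSeq (GRCm38.p6). A companion gene is counted but not reported by name here.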

Additional observations from a re-analysis of the deposited data

Results flagged for a closer look

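Among 20 groups of 9 or 7 libraries checked (9 members and the number of gene rows above 0, in each group), 7 held a library whose distance to its nearest neighbour was large against the range of the group by Dixon's 95% criterion on the log2(TPM + 1) scale. Chance gives about 1 in 20 for normally spread values, a rate that does not hold for groups listed mostly at 0, such as Chat, Il25 and Avil, so the 7 cannot be set against it. In Taar5+ replicate 5, Trpm5 was 7.15 TPM (0 to 1.40 TPM in the other 6 Taar5+ libraries), Avil 5.54 TPM (0 to 0.587 TPM), Il25 4.46 TPM (0 to 0.573 TPM) and Chat 0.912 TPM (0 TPM in the others). In control replicate 2, Pou2f3 was listed at 0 (7.51 to 19.6 TPM in the other 8 controls), as was Coch (54.2 to 1447 TPM). In control replicate 6, Chat was 2.998 TPM (0 to 0.854 TPM). Of the 7, 6 lay in the 2 libraries that were left out in the second analysis.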

How the results depend on the processing

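The number of genes called, 21 with all 16 libraries, was 36 with quantile normalization, 1349 with array weights, 13 of 11781 with a replicate block, and 337 without control replicate 2 and Taar5+ replicate 5. Quantile normalization moved the median difference of all genes from 0.02 to 0.17. With one library left out it was 16 to 148, the highest without control replicate 2, and 66 without Taar5+ replicate 5. Member calls, 0 with all libraries, were 3 with array weights and 2 without both libraries, and 0 in every fit without 1 library. Chemosensory companions called were 0, then 8 and 2, and ionocyte companions 0, then 4 with array weights. The cause was not tested. The number of members under 0.05 by the exact permutation test, 1 with all libraries, was 0 with quantile normalization or mean ranks, 0 with a replicate block by sign flips, 5 without both libraries and 0 to 3 with one library left out (3 without control replicate 2, and 3 without Taar5+ replicate 5). It was 0 without control replicates 3, 6, 7, 8 or 9 or Taar5+ replicates 3, 4, 6 or 7, since the permutation p of Foxi1 was then not under 0.05.

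The sign of Pou2f3 turned in the limma fit and in the permutation test (-0.0006 after rescaling without Taar and OR genes, -0.40 without both libraries), and at -0.22 with array weights. With one library left out it lay between -0.40 and 0.23. No other member turned sign. Trpm5, Il25 and Chat passed only the looser or no filter, and Avil and Cftr passed in 17 of 26 alternatives, so their other values could not be fitted. The replicate numbers 1 to 7 were not shown to pair the libraries: same-number correlations ran from -0.00658 to 0.275, and 3 of 7 libraries correlated best with their own number. The permutation p of Foxi1 with the replicate block by sign flips was 0.219 (exact). In the block fit Foxi1 was -1.90 (limma adjusted p = 0.707) and Ascl3 -2.31 (limma adjusted p = 0.722). The unknown depth limits every statement on genes listed at 0.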
